A study of Danio rerio with 18 samples.

Results

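The comparison set 3 RNA libraries of zebrafish embryos injected with a her3 morpholino against 3 libraries of embryos injected with a mismatch morpholino, both at 24 hours post fertilisation (hpf). These were 6 of the 18 libraries in the series, chosen by their titles. All 6 came from wild-type embryos of the WIK strain (genotype WT) that were injected between the 1-cell and the 4-cell stage and dechorionated at 24 hpf, so both groups carry an injection and a morpholino. Each library was a pool of 20 to 25 whole embryos. Uninjected WIK embryos of the same age are given beside the injected ones as levels, and the series also holds a her3 knockout line and embryos at 72 hpf. Statements on the other groups refer to WIK and the morpholino groups unless the knockout line is named. The series' design text calls the replicates biological. A p-value here rests on the spread between such pools, estimated within the groups of all 18 libraries, with the knockout line and 72 hpf included. Of 25535 genes in the deposited table, 20738 reached 1 CPM (counts of a gene scaled to a common library size) in at least 3 of the 18 libraries and were tested.

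her3 encodes a basic helix-loop-helix-Orange protein of the Hairy and Enhancer of split family. Proteins of this family bind DNA and recruit co-repressors, and many are switched on by Notch signalling to hold back neuronal differentiation. In zebrafish, her3 is known as a repressor of proneural genes in the early neural plate, and it is unusual in being repressed by Notch. A morpholino is an antisense oligomer that binds a transcript and blocks either its translation or its splicing without cutting it, and a mismatch morpholino carries base changes that weaken the binding. Which of these steps the her3 morpholino blocks is not given in the sources used here, and neither oligomer's sequence was used here.

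The 6 libraries held 20736317 to 23135995 reads recovered from the CPM values. Replicate 1 of the her3 morpholino and replicate 3 of the mismatch morpholino stood apart from the other 2 libraries of their groups. On log2(CPM + 0.5), Pearson's r across genes was 0.9914 and 0.9886 for the pairs with her3 morpholino replicate 1 and 0.9948 for replicates 2 and 3. It was 0.9845 and 0.9882 for the pairs with mismatch replicate 3 and 0.9949 for replicates 1 and 2. At least a 2-fold distance separated 627 genes between mismatch replicates 1 and 3, and 112 between replicates 1 and 2. No pair of replicates agreed within sampling noise, the chi-square per degree of freedom being 4.12 or more, and none of the 6 was left out.

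her3 itself, the target named in the labels, had more RNA in the libraries labelled her3 morpholino. It stood at 41.8, 33.7 and 32.3 CPM in her3 morpholino replicates 1 to 3 and at 7.87, 7.66 and 8.09 CPM in the mismatch replicates. Uninjected WIK embryos had 11.04, 9.24 and 9.82 CPM. Every her3 morpholino library was above every mismatch and every WIK library, and the mismatch libraries lay below WIK. The uninjected her3 knockout line at 24 hpf was above WIK as well, with a mean of 22.13 ± 0.06 CPM (SD, n = 3). The log2 difference between the morpholino groups, on log2(CPM + 0.5), was 2.11 ± 0.12 (standard error; limma adjusted p = 5.9e-08). It was called without each of the 6 libraries in turn and under every other alternative that was run. RNA levels say nothing of how much Her3 protein was present, and a morpholino need not lower its target's RNA, so the direction of every difference below follows the labels.

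A gene was called when its Benjamini-Hochberg adjusted p over the 20738 genes, from limma on log2(CPM + 0.5), was under 0.05. There were 694 called genes, 3.35% of those tested. Of these 301 were higher with the her3 morpholino (1.45%) and 393 lower (1.9%). With plain total scaling, in which every library was brought to the same total, the split was 409 higher and 354 lower. A difference of 2-fold or more was shown by 168 of them (0.81%), 79 higher and 89 lower. In 690 of the 694 the 3 values of one group lay above the 3 values of the other, and this was so for 20.8% of all tested genes. The median log2 difference over all tested genes was 0.0018.

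The number of called genes moved with single libraries. It was 327 without her3 morpholino replicate 2, 422 without replicate 3, 441 without mismatch replicate 1 and 373 without replicate 2. It was 817 without her3 morpholino replicate 1 and 509 without mismatch replicate 3, and it was 975 (4.7%) without both of these libraries, of which 426 were among the 694. In several lists below these 2 libraries lie on the side of the other group, so leaving them out widens the difference by itself. What remains is her3 morpholino replicates 2 and 3 against mismatch replicates 1 and 2, so the groups then differ in replicate numbers too. An effect of replicate number on the values without both libraries was not tested. Those values, and the counts of list members past the threshold in that fit, are given as descriptions with no test. The 2 libraries were seen to stand apart in these same data. With a spread estimated from the 6 compared libraries alone 182 genes were called, and 323 from the 12 libraries at 24 hpf. A total of 266 genes was called without each of the 6 libraries in turn.

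**Figure D1:**
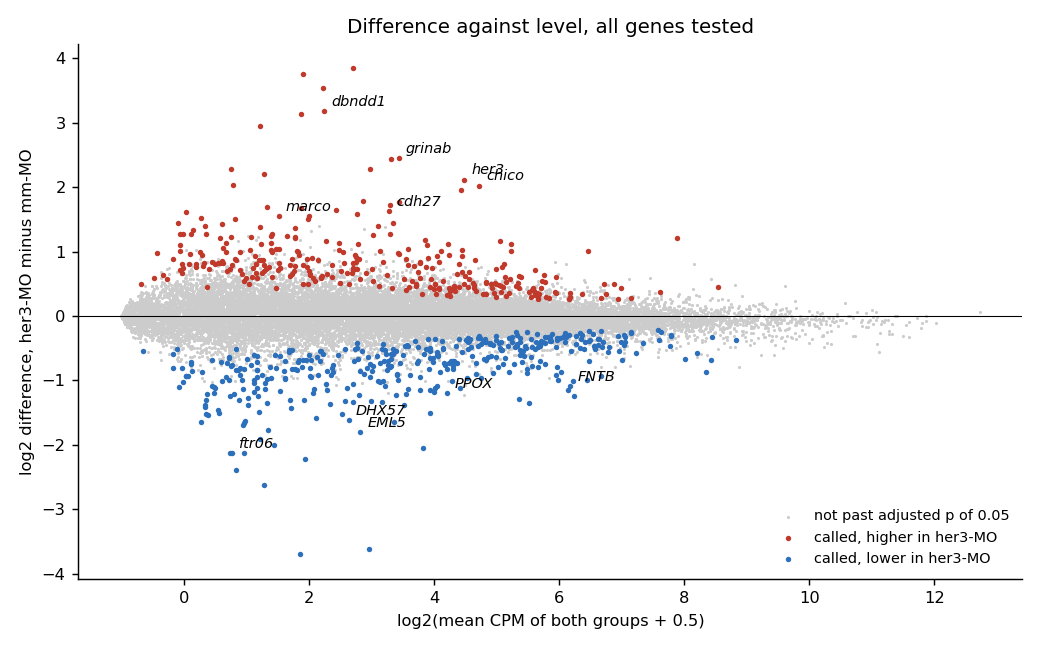
Log2 difference (her3 morpholino minus mismatch morpholino, vertical axis) against log2 of the mean CPM of both groups plus 0.5 (horizontal axis), 1 point per gene tested. Red points are the 301 called genes higher with the her3 morpholino, blue points the 393 lower ones and grey points the rest; called genes occur at all but the highest levels.

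The genes highest against the mismatch morpholino came from unrelated families. Among called genes that differed 2-fold or more, with groups that do not overlap and a mean level of 1 CPM or more in whichever group was higher, 97 carried a gene name (43 higher, 54 lower) and 64 others a clone name or none. The log2 differences of those 64 ran from -3.70 to 3.84. The 12 highest among the named were dbndd1, grinab, plxnb2a.2, PAQR3 (ENSDARG00000017703), pimr55, her3, chico, mhc2dgb, a long non-coding RNA gene (ENSDARG00000105273), plaat1l, pias4b and apcs. The 12 lowest were ms4a17a.7, ftr06, KIF16B (ENSDARG00000080018), EML5, sccpdha.2, slc22a3, DHX57, CENPS, tep1, ifi27.3, ugl and CSRP1 (ENSDARG00000030980). Of these 24 genes, 22 were called without each library in turn, apcs and CENPS being the exceptions. Several belong to multigene families with near-identical copies (pimr55, mhc2dgb, ftr06, ms4a17a.7, sccpdha.2, ifi27.3), and their values are uncertain to the extent that reads were split between copies.

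chico and grinab were lower in the mismatch libraries than with the her3 morpholino and in WIK. chico stood at 45.1, 40.8 and 40.0 CPM in the her3 morpholino libraries, at 9.79, 10.8 and 9.28 in the mismatch libraries and at 42.9, 40.4 and 36.5 in WIK. Its log2 difference between the morpholino groups was 2.02 ± 0.13 (limma adjusted p = 2e-07). grinab, of the family of NMDA receptor-associated membrane proteins, stood at 21.2, 15.3 and 16.6 CPM with the her3 morpholino against 1.88, 2.54 and 4.43 CPM with the mismatch, and the log2 difference was 2.45 ± 0.24 (limma adjusted p = 2.1e-05). WIK had 22.4, 19.4 and 13.9 CPM of grinab, so its values overlapped those of the her3 morpholino and lay above those of the mismatch. The uninjected her3 knockout line at 24 hpf was low as well, with a mean of 5.75 ± 0.57 CPM (SD, n = 3) for chico and 2.699 ± 0.29 CPM for grinab.

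dbndd1, a dysbindin domain gene, had the highest log2 difference of the named genes, 3.18 ± 0.35 (limma adjusted p = 5e-05). Its values were 7.80, 9.44 and 6.93 CPM with the her3 morpholino against 0.367, 0.666 and 0.309 CPM with the mismatch, and in WIK replicate 1 it was 1.78 CPM against 6.81 and 7.01 in the others. PAQR3, a membrane protein of the progestin and adipoQ receptor family, had 13.7, 11.1 and 12.8 against 1.55, 2.67 and 2.47 CPM (log2 difference 2.28 ± 0.20). The Pim kinase family gene pimr55 had 3.22, 3.73 and 3.53 against 0.285, 0.417 and 0.412 CPM (2.198 ± 0.22). In these 3 genes, too, each mismatch library lay below each WIK library.

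plxnb2a.2, a plexin of the family of semaphorin receptors, was, besides her3, the one among the 12 highest in which the WIK mean lay nearer to the mismatch libraries. It had 3.26, 2.26 and 1.41 CPM with the her3 morpholino, 0.122, 0 and 0.0515 CPM in the mismatch libraries and 0.679, 0.739 and 0.154 CPM in WIK (log2 difference 2.28 ± 0.24). mhc2dgb, of the class II histocompatibility complex, had 20.1 CPM in her3 morpholino replicate 1 and 42.0 and 41.0 CPM in the other 2 libraries, against 8.36, 7.12 and 8.61 CPM with the mismatch (1.96 ± 0.23). The remaining members of the 12 were the long non-coding RNA gene at 1.78 ± 0.24, plaat1l, of the phospholipase A and acyltransferase family, at 1.77 ± 0.24, and pias4b, a SUMO ligase, at 1.70 ± 0.24. apcs, a pentraxin, was at 1.67 ± 0.36 (limma adjusted p = 0.015), and its call was lost without her3 morpholino replicate 3 (adjusted p = 0.078) and without mismatch replicate 1 (0.069). cdh27, a cadherin and so a cell adhesion protein, was among the 6 higher genes with the smallest adjusted p, at 10.8, 16.1 and 15.8 against 4.199, 4.58 and 3.87 CPM (1.62 ± 0.15).

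**Figure D2:**
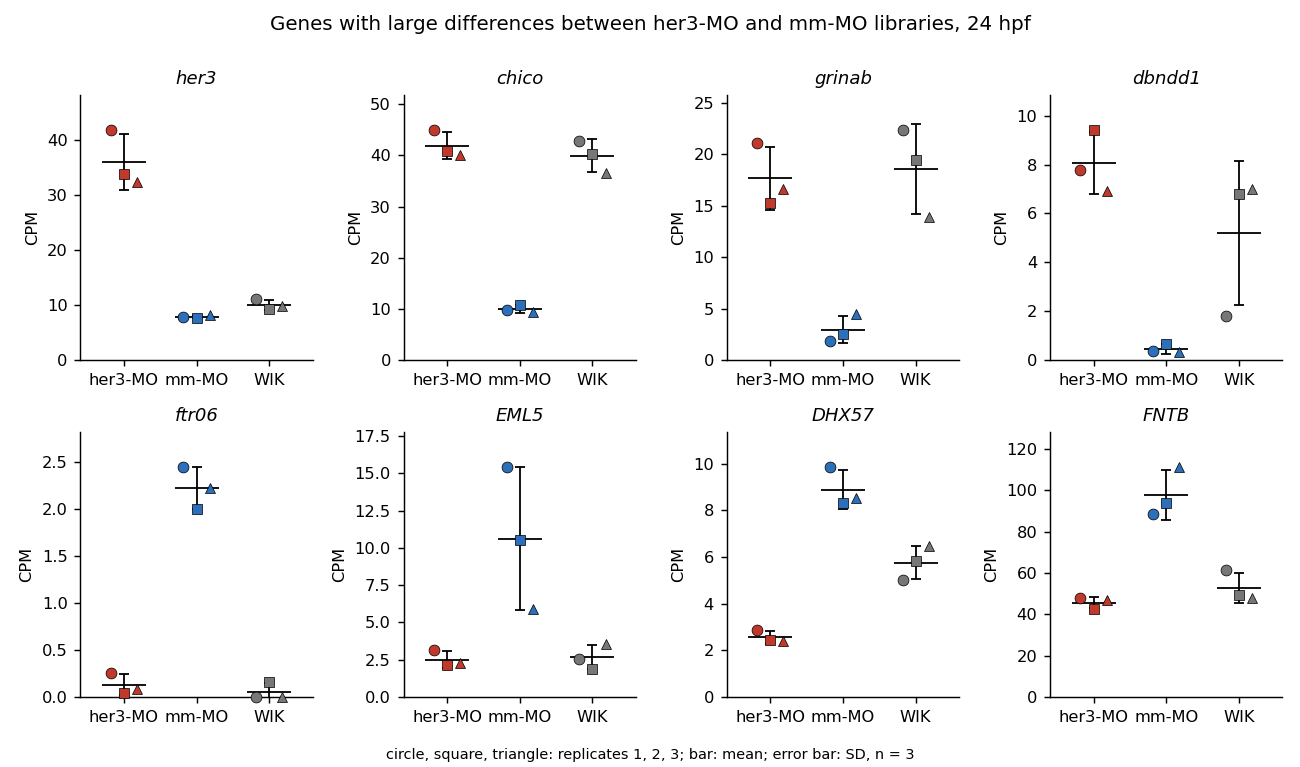
CPM (vertical axes, linear from 0) of 8 genes in each library of the her3 morpholino (her3-MO), mismatch morpholino (mm-MO) and uninjected WIK groups at 24 hpf; points are libraries, bars means and error bars SD (n = 3). The morpholino groups do not overlap in any of the 8 genes, and in chico, grinab, ftr06, EML5 and FNTB it is the mismatch libraries that lie away from WIK.

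Among the lower genes, ftr06 and EML5 were high in the mismatch libraries and low in both other groups. ftr06, of the finTRIM family of fish genes, had 0.254, 0.0410 and 0.0882 CPM with the her3 morpholino, 2.45, 1.999 and 2.22 CPM in the mismatch libraries and at most 0.158 CPM in WIK (log2 difference -2.13 ± 0.15, limma adjusted p = 4.1e-07). EML5, a microtubule-associated protein, had 3.14, 2.13 and 2.25 CPM with the her3 morpholino, 15.5, 10.5 and 5.88 CPM in the mismatch libraries and 2.55, 1.90 and 3.53 CPM in WIK (-1.80 ± 0.26). In both, the her3 morpholino and WIK values overlapped and every mismatch library was above them. slc22a3, an organic cation transporter, had 2.97, 5.21 and 5.51 against 14.7, 13.95 and 16.1 CPM (-1.64 ± 0.21), with 3.99 to 7.32 CPM in WIK. KIF16B, a kinesin of endosome transport, differed by -1.91 ± 0.20 and ifi27.3, of an interferon-inducible family, by -1.51 ± 0.23, both with WIK near the her3 morpholino.

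DHX57, ugl and MIPEP were lowest in the her3 morpholino libraries. DHX57, an RNA helicase family member, had 2.88, 2.42 and 2.38 CPM with the her3 morpholino, 9.87, 8.29 and 8.50 in the mismatch libraries and 5.01, 5.81 and 6.45 in WIK, so the 3 groups were separate (-1.62 ± 0.13, limma adjusted p = 1.7e-06). ugl had 1.95, 2.75 and 2.87 against 8.195, 8.75 and 7.27 CPM, and 7.64, 7.24 and 7.27 CPM in WIK (-1.51 ± 0.19). MIPEP, a peptidase that trims imported mitochondrial proteins, had 9.45, 7.59 and 7.15 against 19.6, 19.4 and 16.4 CPM, and 17.3, 17.1 and 18.0 CPM in WIK (-1.15 ± 0.11). For ugl and MIPEP the mismatch and WIK values overlapped, and the her3 morpholino values lay below both.

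FNTB, the beta subunit of the farnesyltransferase that attaches an isoprenoid to proteins, was among the 6 lower genes with the smallest adjusted p. It stood at 47.8, 42.6 and 46.7 CPM with the her3 morpholino against 88.4, 93.8 and 111.5 CPM with the mismatch (-1.09 ± 0.10, limma adjusted p = 8e-06), with 61.3, 49.4 and 47.8 CPM in WIK. DUSP23 (ENSDARG00000089245), a dual-specificity phosphatase, differed by -1.34 ± 0.13. The very low genes ms4a17a.7 (-2.13 ± 0.25), sccpdha.2 (-1.65 ± 0.18) and tep1 (-1.53 ± 0.21) each had at most 0.339 CPM in a her3 morpholino library. CENPS, a kinetochore protein, was at -1.58 ± 0.39 (limma adjusted p = 0.036) with 11.1 CPM in mismatch replicate 2 against 3.71 and 3.61 CPM in the other 2. Its call was lost without that library (adjusted p = 0.17) and without her3 morpholino replicate 1 (0.082), 2 (0.066) or 3 (0.13). CSRP1, a LIM-domain protein, was at -1.51 ± 0.28 and lost its call without both libraries that stand apart (adjusted p = 0.058).

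Set beside WIK, the mismatch group was the one farther away for most of the strongest differences. For 19 of the 24 genes above (10 of the 12 highest and 9 of the 12 lowest) the WIK mean on the log2 scale was nearer to the her3 morpholino mean than to the mismatch mean. This held for 72 of the 97 named genes and for 412 of the 694 called genes, while for 282 the mismatch mean was nearer. her3 and plxnb2a.2 were the exceptions among the 12 highest. These counts are descriptions without a test, and the morpholino groups share the same WIK libraries. The same count over all tested genes is not given here, so they cannot be read as particular to the called genes.

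The her, hes and hey family, to which her3 belongs, showed few other differences. Of 28 genes tested 2 rose, her3 and her4.2, and none fell, a share of 7.14% against 3.35% of all genes. her4.2, a Notch-responsive repressor of neurogenesis, had 50.7, 44.2 and 41.9 CPM with the her3 morpholino against 35.9, 30.2 and 32.6 CPM with the mismatch (log2 difference 0.46 ± 0.09, limma adjusted p = 0.0074). WIK was above both, at 69.96, 68.98 and 62.9 CPM. her4.2 lost its call with only the 6 compared libraries in the fit (limma adjusted p = 0.13). The her4 genes are near-identical copies, so the split of reads among them is uncertain. The mean of her4.4 was 34.7 against 39.8 CPM and that of her15.1 was 77.1 CPM in both groups, neither passing the test (adjusted p = 0.38 and 1).

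In the Notch pathway 2 of 31 genes rose and none fell (6.45%, against 3.35% of all genes), and the median log2 difference was 0.14. jag1b, a Notch ligand, had 33.9, 38.4 and 39.5 against 30.1, 30.5 and 25.7 CPM (0.37 ± 0.09, limma adjusted p = 0.030), and its call was lost without her3 morpholino replicate 2 (0.13) or 3 (0.12) and without mismatch replicate 3 (0.11). The receptor notch2 had 59.4, 73.0 and 73.3 against 55.9, 55.4 and 47.2 CPM (0.37 ± 0.10, limma adjusted p = 0.046). It stayed called only without her3 morpholino replicate 1, with adjusted p of 0.064 to 0.20 without each of the others. With plain total scaling neither passed (adjusted p = 0.058 for jag1b and 0.082 for notch2). Neither passed with only the 6 compared libraries, or only the 12 at 24 hpf, in the fit.

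Neuronal differentiation genes differed little. Of 38 proneural and neuronal differentiation genes 1 fell (2.63%, against 3.35% of all genes). It was PHOX2A, a homeobox factor of hindbrain and autonomic neurons, with 10.3, 6.77 and 8.56 against 12.4, 12.6 and 14.4 CPM (-0.61 ± 0.15, limma adjusted p = 0.032). It stayed called only without her3 morpholino replicate 1 (adjusted p = 0.063 to 0.17 without each of the others). Of 42 neural progenitor and radial glia genes 2 rose (4.76%). No member of that list was called with only the 6 compared libraries in the fit. FABP7 (ENSDARG00000034650), a fatty acid binding protein of radial glia, had 1.82, 1.48 and 2.29 against 0.285, 0.4998 and 0.773 CPM (1.23 ± 0.18, limma adjusted p = 0.00068), and rx2, a retinal homeobox factor, 9.79, 9.77 and 8.95 against 5.02, 5.12 and 6.65 CPM (0.72 ± 0.12, limma adjusted p = 0.0020). For both, WIK was near the her3 morpholino, at 2.06 to 2.46 CPM and at 8.49 to 8.72 CPM. Among 38 synapse genes none passed the test. SLC18A3 (ENSDARG00000107527), a vesicular acetylcholine transporter gene, was at 0.69 ± 0.21 (adjusted p = 0.10) and TH at 0.43 ± 0.24 (0.43). That SLC18A3 gene was barely detected, at 0.805, 0.369 and 0.221 against 0, 0.208 and 0.0515 CPM. A better detected SLC18A3 gene, ENSDARG00000006356, had 13.7, 7.14 and 6.00 against 13.6, 10.4 and 6.13 CPM. Its log2 difference was -0.18 (limma adjusted p = 0.8).

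Pigment cell genes were the list with the most members higher. Of 42 neural crest and pigment genes 5 rose and none fell (11.9%, against 3.35% of all genes). Of all genes 1.45% rose. The median log2 difference of the list was 0.15. Of the 2 TYRP1 genes, which encode an enzyme of melanin synthesis, ENSDARG00000029204 had 63.6, 69.5 and 62.5 CPM with the her3 morpholino, 36.8, 44.1 and 44.4 CPM in the mismatch libraries and 35.8, 37.8 and 35.9 CPM in WIK (0.64 ± 0.09, limma adjusted p = 0.00036). The second, ENSDARG00000056151, had 150.4, 144.9 and 139.8 against 94.6, 111.0 and 115.4 CPM (0.44 ± 0.08, limma adjusted p = 0.0042). Here the her3 morpholino libraries lay above both other groups, which overlapped.

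DCT, the dopachrome tautomerase of the same pathway, had 129.6, 120.1 and 115.2 against 75.1, 89.5 and 95.1 CPM (0.49 ± 0.08, limma adjusted p = 0.0019). EDNRB, the endothelin receptor of pigment cell precursors, had 6.57, 7.51 and 6.93 against 4.12, 3.75 and 3.35 CPM (0.83 ± 0.16, limma adjusted p = 0.0089) and lost its call without her3 morpholino replicate 2 (0.051). pmela, a melanosome matrix protein outside the rule for named genes, was at 0.28 ± 0.07 with an adjusted p that rounds to 0.05 and stayed called only without mismatch replicate 3 (0.065 to 0.19 otherwise). DCT and both TYRP1 genes were called without each library in turn. With only the 6 compared libraries in the fit, DCT (limma adjusted p = 0.1) and TYRP1 ENSDARG00000056151 (0.11) lost their calls. In that fit 2 members of the list were called, and 4 with the 12 libraries at 24 hpf. As a description, without both libraries that stand apart 8 of the 42 were higher and 1, FOXD3, a crest specifier, lower (-0.57 ± 0.09). Of all genes 4.7% were called in that fit, in either direction.

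Several light-regulated genes were lower with the her3 morpholino. Of 40 clock and light genes 5 fell and none rose (12.5%, against 3.35% of all genes), while the median of the list was -0.03. Of all genes 1.9% fell. With only the 6 compared libraries, or only the 12 at 24 hpf, in the fit 3 members were called. CRY1 (ENSDARG00000045768), a cryptochrome repressor of the clock, had 14.2, 14.3 and 15.5 CPM with the her3 morpholino, 25.0, 24.2 and 23.0 CPM in the mismatch libraries and 21.2, 25.1 and 25.4 CPM in WIK (-0.70 ± 0.09, limma adjusted p = 0.0002). lonrf1 had 23.7, 26.2 and 23.5 against 36.5, 37.0 and 41.5 CPM, and 48.5, 45.3 and 52.3 CPM in WIK (-0.64 ± 0.08, limma adjusted p = 0.00015). For CRY1 and lonrf1 the her3 morpholino libraries lay below both other groups.

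PER2, a period gene that light induces in zebrafish, had 10.9, 9.77 and 10.5 against 19.6, 19.6 and 17.0 CPM (-0.82 ± 0.13, limma adjusted p = 0.0019), and WIK, at 9.17, 12.9 and 13.2 CPM, overlapped the her3 morpholino. cry5, a DNA photolyase, had 5.72, 4.84 and 5.56 against 9.62, 7.79 and 10.7 CPM (-0.74 ± 0.15, limma adjusted p = 0.0096), with the call lost without her3 morpholino replicate 2 (0.061). tefa, a PAR bZIP factor outside the rule for named genes, was at -0.33 ± 0.08 (limma adjusted p = 0.026); it stayed called only without her3 morpholino replicate 2 and without mismatch replicate 1 (0.061 to 0.094 otherwise). The hour of collection and the lighting of the pools were not stated in the sources used here.

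**Figure D3:**
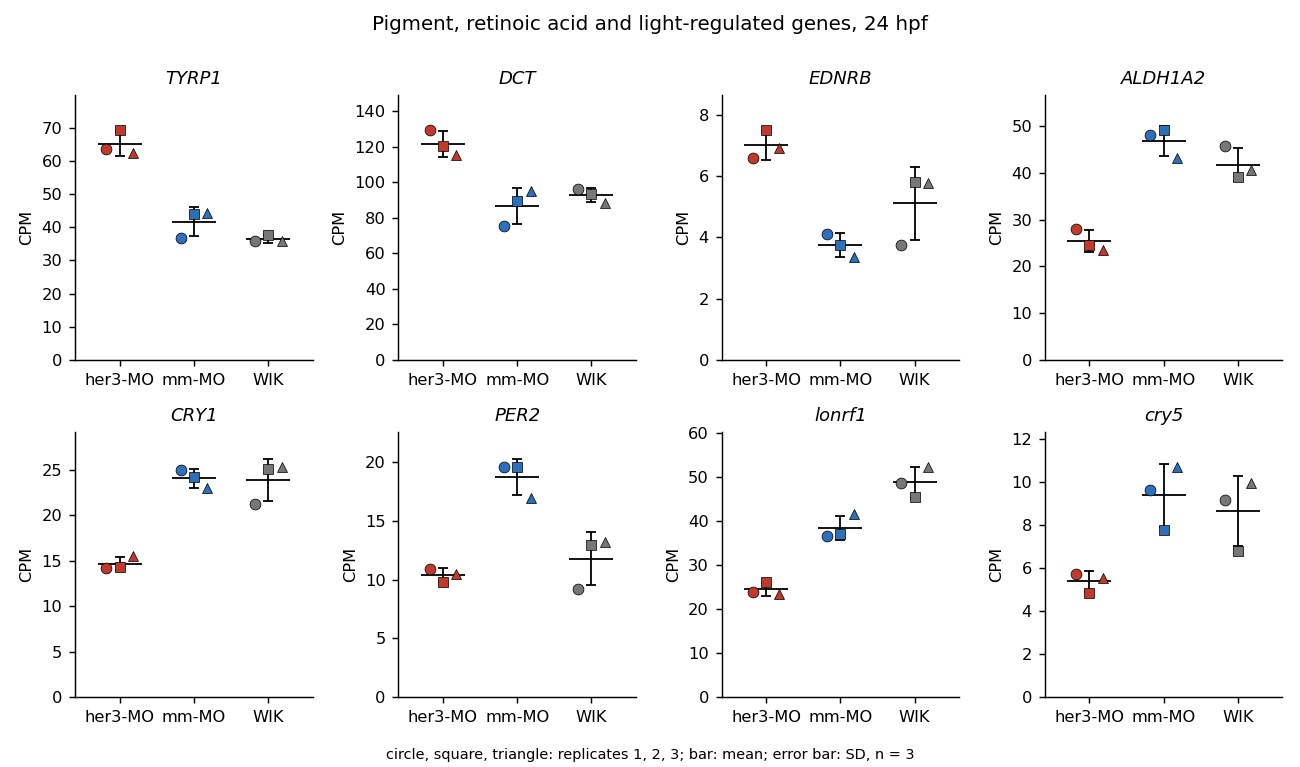
CPM (vertical axes, linear from 0) of pigment genes (TYRP1, here ENSDARG00000029204, DCT and EDNRB), ALDH1A2 and clock and light genes (CRY1, PER2, lonrf1 and cry5) in each her3 morpholino (her3-MO), mismatch morpholino (mm-MO) and WIK library at 24 hpf; bars are means and error bars SD (n = 3). The morpholino groups do not overlap in any panel, and WIK lies beside the mismatch in TYRP1, DCT, ALDH1A2 and CRY1 and beside the her3 morpholino in PER2.

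Both genes of retinoic acid synthesis that passed the test were lower. Of 55 feedback and synthesis genes of the retinoic acid, Wnt, Fgf, Bmp and Hedgehog pathways 3 fell and none rose. This was 5.5%, against 3.35% of all genes. ALDH1A2, the enzyme that makes retinoic acid in the somites, had 28.0, 24.6 and 23.5 against 48.0, 49.2 and 43.1 CPM, and 45.7, 39.0 and 40.6 CPM in WIK (-0.87 ± 0.17, limma adjusted p = 0.0071). The her3 morpholino libraries were below both other groups, and the gene was called without each library in turn. RDH10 (ENSDARG00000012369), which makes its retinal substrate, was at -0.52 ± 0.13 (limma adjusted p = 0.034) and stayed called only without mismatch replicate 1 (0.052 to 0.13 without the others). nkx2.2b, a Hedgehog-responsive homeobox gene, was at -0.54 ± 0.14 (limma adjusted p = 0.049) and stayed called only without her3 morpholino replicate 1 (0.085 to 0.22).

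Among 26 segmentation and presomitic mesoderm genes 2 fell (7.69%, against 3.35% of all genes), ALDH1A2 and tbxta. The latter, the Brachyury factor of the tailbud and notochord, had 39.5, 29.5 and 30.6 against 48.2, 46.3 and 42.6 CPM (-0.47 ± 0.12, limma adjusted p = 0.037). tbxta stayed called only without either library that stands apart (0.12 to 0.18 without each of the others).

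Notochord and floor plate genes had the highest share of members called among the 28 lists, 5 lower and none higher of 34 (14.7%). Of all genes 3.35% were called and 1.9% were lower. The median log2 difference of the list was -0.20. No member was called with only the 6 compared libraries, or only the 12 at 24 hpf, in the fit. The same held without her3 morpholino replicate 2. epyc, a small proteoglycan of the notochord region, had 50.1, 31.3 and 29.3 against 69.2, 68.4 and 51.3 CPM (-0.79 ± 0.17, limma adjusted p = 0.013). FOXA2, a factor of floor plate and notochord, had 19.3, 18.9 and 19.9 against 23.6, 24.6 and 27.3 CPM (-0.37 ± 0.08, limma adjusted p = 0.015), with the call lost without her3 morpholino replicate 2 (0.074) and mismatch replicate 3 (0.063). MATN3 (ENSDARG00000069245), a cartilage matrix protein, was at -0.84 ± 0.19 (limma adjusted p = 0.019). COL2A1 (ENSDARG00000069093), the type II collagen of the notochord sheath and named outside the rule, had 231.9, 186.9 and 173.7 against 385.3, 340.0 and 231.6 CPM (-0.67 ± 0.17, limma adjusted p = 0.044). epyc and MATN3 lost their calls without her3 morpholino replicate 2 (0.083 and 0.095) or 3 (0.071 and 0.077) and without mismatch replicate 1 (0.061 and 0.063) or 2 (0.069 and 0.094). COL2A1 stayed called only without either library that stands apart, with an adjusted p of up to 0.17 otherwise.

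In epyc and COL2A1 the highest her3 morpholino library was replicate 1 and the lowest mismatch library was replicate 3. Leaving these libraries out widens such differences by itself, so the values without them are a description and not a test. Without them 10 of the 34 notochord and floor plate genes were lower and none higher, beside 4.7% of all genes in either direction. epyc was then at -1.17 ± 0.12, and 2 collagen genes that had not passed with all libraries, col9a1b and COL9A2, were at -0.94 ± 0.12 and -0.73 ± 0.11.

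Muscle genes moved with the same libraries. With all libraries 1 of 63 muscle structure genes was called (1.59%, against 3.35% of all genes). This was atp2a1l, a calcium pump gene, lower at 7.63, 7.26 and 5.20 against 14.2, 17.0 and 10.4 CPM (-0.99 ± 0.24, limma adjusted p = 0.033). It stayed called only without either library that stands apart (0.079 to 0.15 otherwise) and not with plain total scaling (0.061). The median of the list was -0.21, with 51 of 63 genes below 0. Set against the mean of the 6 libraries, the median of the list was 0.37 in her3 morpholino replicate 1 and -0.21 and -0.42 in replicates 2 and 3. In the mismatch replicates it was 0.21, 0.21 and -0.07. Replicate 1 was thus the highest library of all 6, on the opposite side from the other her3 morpholino libraries.

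In both libraries that stand apart this list lay away from the other libraries of their groups. Leaving them out widens the difference by itself, so the values without them are a description and not a test. Without both, 23 of the 63 muscle structure genes were past the threshold as lower and none as higher. Of all genes 4.7% were past it, in either direction. The median of the list was then -0.51. The 4 with the smallest adjusted p were actn3b, actn3a, myhz1.1 and ckma. actn3b, an alpha-actinin of the Z disc, had 172.6 and 134.1 CPM in her3 morpholino replicates 2 and 3 and 335.5 and 323.2 CPM in mismatch replicates 1 and 2, while her3 morpholino replicate 1 had 316.7 and mismatch replicate 3 had 175.9 CPM. Its log2 difference was -0.46 with all 6 libraries (adjusted p = 0.42) and -1.11 ± 0.13 without these 2. The fast myosin gene myhz1.1 had 1028, 458.7 and 381.5 against 837, 925.6 and 444.8 CPM, and the muscle creatine kinase ckma 1110, 665 and 587.2 against 1034, 1057 and 834.3 CPM. In actn3b and myhz1.1 each library that stands apart was at the level of the other group. Without her3 morpholino replicate 1 alone 12 were lower, and without mismatch replicate 3 alone 1.

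None of 32 myogenic regulators passed with all libraries. MYOD1, a myogenic determination factor, had 16.2, 8.82 and 6.70 CPM with the her3 morpholino against 16.6, 15.9 and 16.0 CPM with the mismatch (-0.68 ± 0.28, adjusted p = 0.25). For MYOD1 replicate 1 of the her3 morpholino fell among the mismatch values and replicates 2 and 3 below them. Without both libraries, again as a description and not a test, 6 of the 32 were lower, beside 4.7% of all genes in either direction. SMYD1 (ENSDARG00000009280), a muscle methyltransferase, was then at -0.57 ± 0.11 and MEF2C (ENSDARG00000029764), a muscle transcription factor, at -0.58 ± 0.11. Synapse genes behaved likewise, with 6 of 38 lower without both libraries, beside the same 4.7%. The smallest adjusted p among them belonged to the neuronal genes SLC18A3 (ENSDARG00000006356, -0.81 ± 0.13) and GAD1 (ENSDARG00000027419, -0.68 ± 0.11). CHRNG (-0.51 ± 0.11) and CHRNA1 (-0.43 ± 0.10), receptor subunits of the nerve to muscle synapse, came next.

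Skin genes showed the opposite order. None of 43 skin and epithelial genes passed with all libraries, the nearest being the keratins krt92 (0.47 ± 0.13, adjusted p = 0.055) and cyt1l (-0.55 ± 0.15, adjusted p = 0.058). The list's median, set against the mean of the 6 libraries, was -0.20, 0.06 and 0.22 in the her3 morpholino replicates and -0.23, -0.09 and 0.26 in the mismatch replicates. The libraries that stand apart had the lowest but 1 and the highest of these medians, so leaving them out widens the difference by itself. As a description, 10 of the 43 were then past the threshold as higher and none as lower. Of all genes 4.7% were past it, in either direction. PPL, the periplakin of epithelial junctions, had 356.6, 575.7 and 660.0 against 321.6, 346.8 and 444.4 CPM, a log2 difference of 0.48 with all libraries (adjusted p = 0.18) and 0.88 ± 0.12 without the 2. evpla, the related envoplakin gene, was then at 0.74 ± 0.10.

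**Figure D4:**
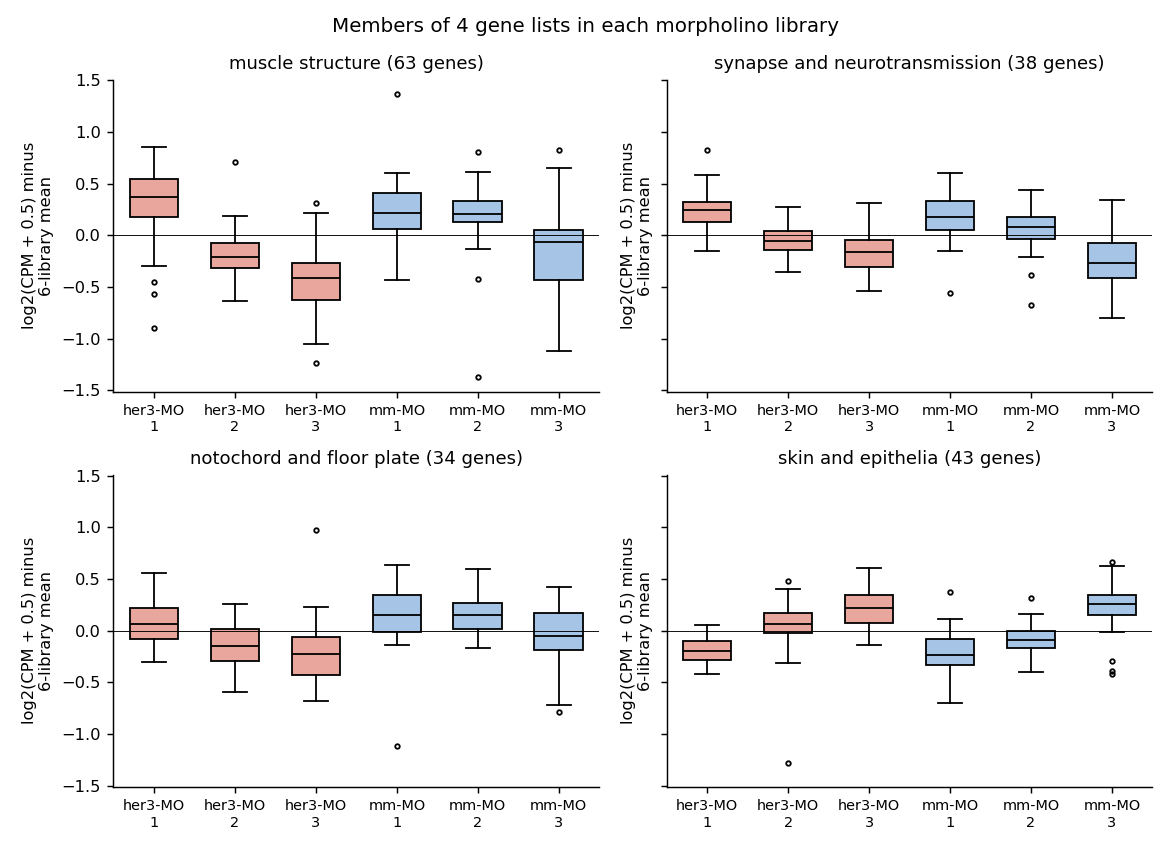
Log2(CPM + 0.5) of each list member minus its mean over the 6 libraries (vertical axes) in each her3 morpholino (her3-MO) and mismatch morpholino (mm-MO) library; boxes span the quartiles with the median as a line, whiskers reach 1.5 box lengths and circles are genes beyond them. her3-MO 1 lies apart from her3-MO 2 and 3, and mm-MO 3 from mm-MO 1 and 2, in the muscle list (medians 0.37 against -0.21 and -0.42, and -0.07 against 0.21 and 0.21).

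The single genes farthest from their group in the libraries that stand apart were of mixed function. In her3 morpholino replicate 1, 74 of 15147 named genes at a group mean of at least 1 CPM were at least 2-fold above the mean of the other 2 libraries on the log2 scale and 98 were at least 2-fold below. The 8 highest were LRRC39, ERGIC2, NDUFA12, RCN2, SLC38A8 (ENSDARG00000054196), ube2l3a, PSMA5 and myhc4, of which 2 are muscle genes: LRRC39, an M-band protein, was at 16.2 against 3.69 and 1.99 CPM, and the fast myosin myhc4 at 123.7 against 54.1 and 34.3 CPM. The 8 lowest were NDUFS4, COMMD7, RBP2 (ENSDARG00000093774), tmem14a, POLR2F, vtg7, MAN1B1 (ENSDARG00000076592) and p4ha1a. vtg7, a yolk vitellogenin, was at 0.593 against 3.90 and 4.28 CPM.

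In mismatch replicate 3, 56 genes were at least 2-fold above and 188 at least 2-fold below the other 2 libraries. The 8 lowest were ERGIC2, PHB2 (ENSDARG00000017728), MED28, NDUFA12, mideasa, sema6bb, obscnb and lama2. obscnb, an obscurin of muscle, was at 2.89 against 13.0 and 9.62 CPM, and lama2, a laminin chain of the muscle basement membrane, at 2.17 against 7.83 and 8.25 CPM. The 8 highest were tmem14a, MRPL47, ATG12, COMMD7, CDK5RAP3, tex30, BBIP1 and MEIG1. Several of these genes also varied within the other groups: NDUFA12 had 52.7 and 10.5 CPM in mismatch replicates 1 and 2 and 23.4, 7.50 and 49.8 CPM in WIK.

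The damage response genes mdm2 and BAX were highest in the mismatch libraries and lowest in WIK. Of 48 damage response and cell death genes 3 fell and none rose (6.25%, against 3.35% of all genes). The median log2 difference of the list was -0.02, with 22 genes above 0 and 26 below. mdm2, a ubiquitin ligase that DNA damage induces, had 55.5, 63.4 and 58.0 CPM with the her3 morpholino, 85.6, 90.9 and 82.5 CPM in the mismatch libraries and 41.6, 30.0 and 33.8 CPM in WIK (-0.55 ± 0.11, limma adjusted p = 0.013). The 3 groups did not overlap, and the call was lost without mismatch replicate 2 (0.065). BAX, a pore-forming protein of apoptosis, had the same order, with 116.0 to 118.9 CPM, 135.3 to 149.3 CPM and 81.8 to 95.4 CPM (-0.29 ± 0.07, limma adjusted p = 0.037), and stayed called only without mismatch replicate 1 (0.069 to 0.13 otherwise). GADD45A (ENSDARG00000104571), a stress-induced growth arrest gene, was at -0.72 ± 0.19 (limma adjusted p = 0.047) and lost its call without each library in turn (0.089 to 0.15). It did not share the order of mdm2 and BAX. WIK had the highest mean of GADD45A, 12.94 CPM, against 10.51 CPM in the mismatch and 6.15 CPM in the her3 morpholino libraries. The heat shock list had 1 of 40 lower (2.5%), the chaperone partner dnajb1b (-0.40 ± 0.10, limma adjusted p = 0.034). Its call was likewise lost without each library (0.070 to 0.13).

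Immune genes differed in both directions. Of 33 leukocyte genes 3 rose and none fell (9.09%, against 3.35% of all genes). Of all genes 1.45% rose. With only the 6 compared libraries, or only the 12 at 24 hpf, in the fit 1 leukocyte gene was called. marco, a scavenger receptor of macrophages, had 3.09, 4.43 and 3.79 CPM with the her3 morpholino, 0.856, 0.916 and 1.08 CPM in the mismatch libraries and 0.211 to 0.512 CPM in WIK (1.55 ± 0.18, limma adjusted p = 8.7e-05), and was called without each library in turn. The myeloid factor spi1a was at 0.61 ± 0.13 (limma adjusted p = 0.020), with the call lost without her3 morpholino replicate 2 (0.10) and mismatch replicate 1 (0.058) or 2 (0.11). MPEG1 (ENSDARG00000043093), a macrophage pore-forming protein, was at 0.72 ± 0.18 (limma adjusted p = 0.037) and lost its call without each library (0.066 to 0.13). Other markers of these cells did not pass the test: LCP1 had means of 58.9 and 57.9 CPM (adjusted p = 0.96) and rac2 54.9 and 57.4 CPM (0.93). In such whole-embryo RNA a change in the number of cells of a type and a change in RNA per cell cannot be told apart.

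Of 30 inflammation and complement genes 1 rose and 2 fell (10%, against 3.35% of all genes). c7a, a component of the terminal complement pathway, rose, at 9.11, 12.6 and 11.4 against 4.53, 4.79 and 3.66 CPM (1.25 ± 0.17, limma adjusted p = 0.00034). The chemokine cxcl20 fell, at 2.80, 3.82 and 3.44 against 6.12, 7.997 and 9.54 CPM, with WIK at 2.2 to 3.99 CPM (-1.11 ± 0.19, limma adjusted p = 0.0025). cfhl3, of the complement factor H family, was at -1.28 ± 0.30 (limma adjusted p = 0.029) and stayed called only without mismatch replicate 3 (0.054 to 0.11 otherwise). None of 17 interferon and nucleic acid response genes passed; STING1 was at 0.56 ± 0.17 (adjusted p = 0.10) and IFIH1 at -0.50 ± 0.17 (0.15). The immediate-early list had 1 of 33 higher (3.03%). This was ier2b, at 22.3, 21.6 and 24.1 against at most 11.5 CPM (1.01 ± 0.16, limma adjusted p = 0.0016). Both injected groups lay below WIK for ier2b, which had 30.2 to 54.9 CPM.

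Blood, eye and skeletal lists gave single genes. Of 32 erythroid and heme genes 2 fell (6.25%, against 3.35% of all genes). PPOX, the oxidase before the last step of heme synthesis, had 8.05, 12.8 and 11.7 against 24.8, 26.6 and 24.0 CPM (-1.20 ± 0.15, limma adjusted p = 0.00015). LMO2, a blood and vessel factor, was at -0.34 ± 0.08 (limma adjusted p = 0.018). It stayed called only without replicate 1 of either group (0.066 to 0.080 otherwise). WIK had 13.8 to 14.6 CPM of PPOX, between the other groups. The embryonic globin hbae3 had means of 676.8 and 780.1 CPM and did not pass (adjusted p = 0.65). Of 49 photoreceptor genes 2 fell (4.08%), both low. The cone opsin kinase GRK7 (ENSDARG00000055534) had 0.678, 0.698 and 0.750 against 2.81, 2.62 and 3.30 CPM (-1.49 ± 0.15, limma adjusted p = 1.8e-05). The rod phosphodiesterase PDE6B (ENSDARG00000000380) had 1.19, 0.862 and 0.838 against 2.73, 2.25 and 2.22 CPM (-0.99 ± 0.16, limma adjusted p = 0.0016). For both genes WIK overlapped the her3 morpholino, at 0.581 to 1.18 and 1.02 to 1.16 CPM.

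The lens list had the highest median of the 28, 0.32, with 35 of 43 genes above 0. Yet 1 member was called (2.33%, against 3.35% of all genes), LIM2 (ENSDARG00000041295), and it fell. LIM2 was barely detected, at 0 CPM in her3 morpholino replicates 2 and 3 and at most 0.333 CPM in the mismatch, and it lost its call without each library (0.055 to 0.20). The beta crystallin crybb1l1 had means of 116.1 and 85.3 CPM (0.46, adjusted p = 0.17), and CRYBB1 100.4 and 78.2 CPM (0.38, adjusted p = 0.27). Relative to the 6-library mean the lens median was 0.11, 0.11 and 0.22 in the her3 morpholino replicates and -0.34, -0.18 and 0.16 in the mismatch replicates, so mismatch replicate 3 lay among the her3 morpholino libraries. In the cartilage, bone and fin list 2 of 37 rose and 1 fell (8.11%). With only the 6 compared libraries in the fit no member of that list was called. The collagen COL6A2 (0.51 ± 0.09, limma adjusted p = 0.0032) and the basement membrane protein fras1 (0.51 ± 0.09, limma adjusted p = 0.0042) rose. The fin-fold actinodin and3 fell (-0.93 ± 0.17, limma adjusted p = 0.0048).

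In 9 of the 28 lists no member passed: synapse, myogenic regulators, interferon, endothelium and heart, skin, hatching gland, hox clusters, cell cycle, and liver, pancreas and gut. The nearest members there, beside those given above, were cdh5 (-0.24 ± 0.09, adjusted p = 0.17) and plvapb (-0.32 ± 0.13, 0.25) of endothelium, ctslb (-0.61 ± 0.19, 0.11) and foxa3 (-0.43 ± 0.13, 0.10) of the hatching gland, and apobb.2 (-0.79 ± 0.25, 0.11) of the liver. hoxb6b was at -0.43 ± 0.20 (0.32) and hoxd13a at 0.22 ± 0.12 (0.43), and the proliferation genes TOP2A at 0.25 ± 0.07 (0.072) and GMNN at 0.54 ± 0.18 (0.13). Over all lists 45 of 1046 genes were called (4.3%), against 3.35% of all genes. Without both libraries that stand apart it was 103 (9.85%) against 4.7%, and 36 of the 45 were among them. That count is a description, since the libraries left out were picked from these same data. With plain total scaling the median changed sign or became 0 in 9 lists, all with a median of at most 0.04 in size. Without both libraries that stand apart the median changed sign in 7 lists, and not only in those near 0. For the hatching gland it went from -0.23 to 0.04, and for liver, pancreas and gut from -0.15 to 0.06.

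**Figure D5:**
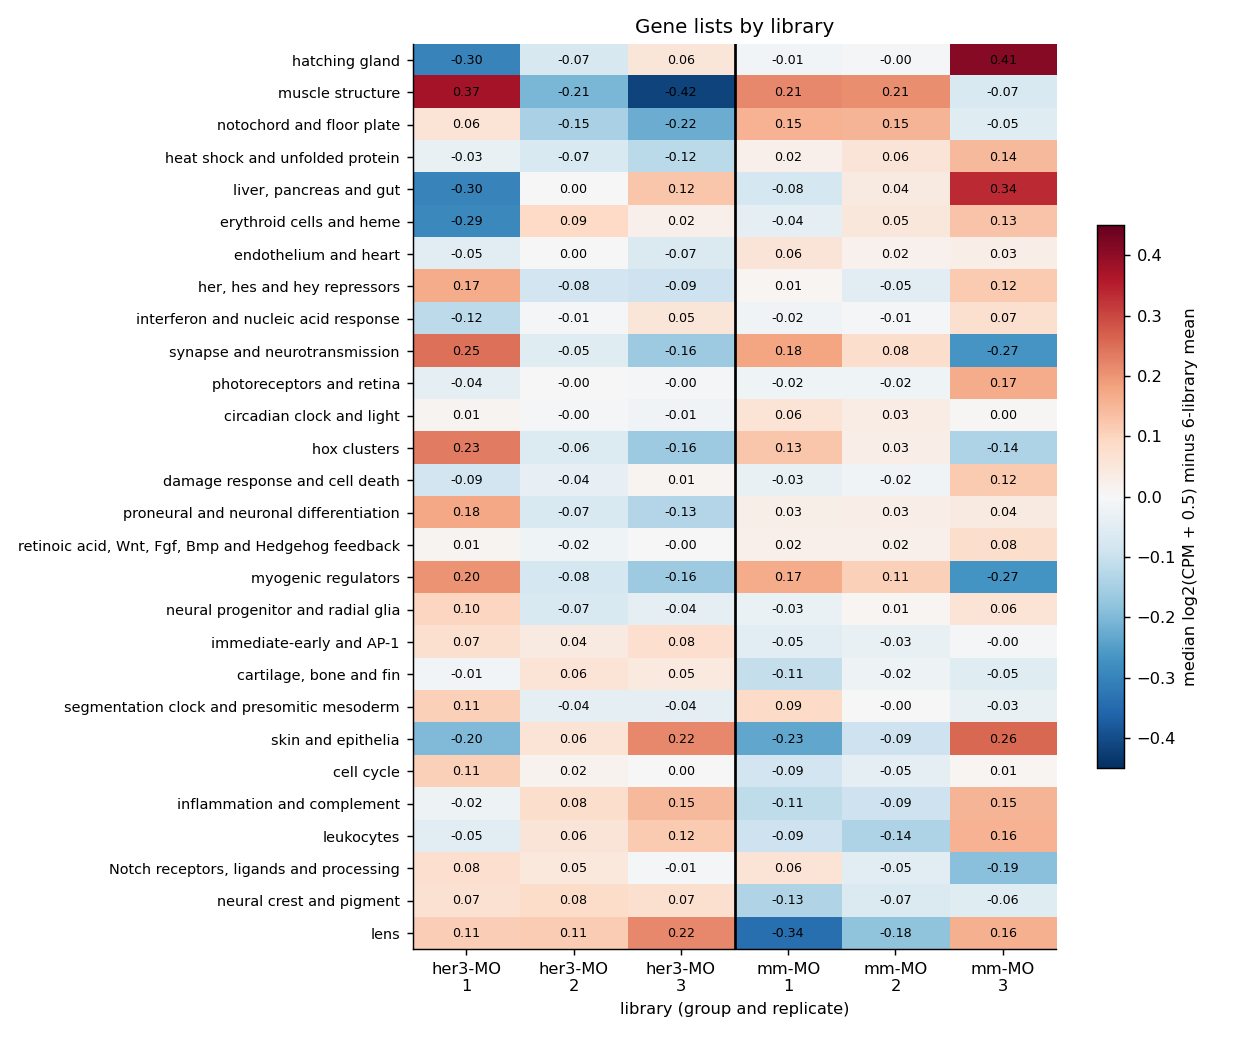
Median over each list's tested members of log2(CPM + 0.5) minus the gene's mean over the 6 libraries, for each her3 morpholino (her3-MO, left) and mismatch morpholino (mm-MO, right) library, as colour and number; lists are ordered by their median log2 difference between the groups. In the neural crest and pigment list the her3-MO medians (0.07 to 0.08) lie above the mm-MO medians (-0.13 to -0.06), while in muscle, skin and liver lists her3-MO 1 and mm-MO 3 lie away from their groups.

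Genes that differed between WIK embryos at 24 and 72 hpf were followed as 2 sets. In WIK 788 tested genes were at least 4-fold lower at 72 than at 24 hpf and 2656 at least 4-fold higher (limma adjusted p under 0.05). Relative to the WIK mean at 24 hpf the median of the 788 was -0.48, -0.26 and -0.16 in the her3 morpholino replicates and -0.27, -0.21 and -0.02 in the mismatch replicates. It was 0.12, -0.04 and -0.07 in the WIK replicates themselves, so mismatch replicate 3 lay within the WIK range. Because the 788 were selected for being high in the same WIK libraries that serve as the reference, values below 0 are favoured by the selection. For the 2656 genes the medians were 0.12, 0.06 and 0.03 in the her3 morpholino replicates, 0.09, 0.06 and -0.03 in the mismatch replicates and -0.07, 0.03 and 0.05 in WIK. Between the morpholino groups 55 of these 788 genes were called (6.98%, against 3.35% of all genes), 16 higher and 39 lower, with a median log2 difference of -0.14. Without both libraries that stand apart the median was 0.04. Of the 2656 genes 59 were called (2.22%), 28 higher and 31 lower, with a median of 0.03. Whether a difference in stage took part in the results above was not tested.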

How the data were processed

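Poly(A) RNA of 18 zebrafish pools was sequenced with a strand-directional kit, per the labels' protocols. The authors deposited 1 table of CPM values per gene and library. HISAT2 2.2.1, SAMtools 1.10, featureCounts 2.0.2 and edgeR 3.34.0, with the danRer11 build, are named by the authors in the submitters' processing notes; the strand setting and the handling of multi-mapping reads were not stated there. All CPM values were whole multiples of 1 read (tolerance 0.01), which gave the reads per library; 3 reads, the floor for a gene at 0, cover counting error only. Genes with at least 1 CPM in 3 libraries were fitted as log2(CPM + 0.5) with limma 3.58.1 in R 4.3.3 (trend and robust moderation, 6 groups of 3, 12 residual degrees of freedom), after a test on simulated data. This scale understates the change of low genes. Symbols came from a table that named 23539 of the 25535 genes.

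The libraries and the 28 lists (1057 of 1147 symbols matched) were chosen with earlier results of these data known. Named were her3, the 12 highest and 12 lowest differences and the 6 smallest adjusted p in each direction among called, 2-fold, non-overlapping genes with a mean of at least 1 CPM and no clone name, up to 4 called members per list (or 2 where none was called), and the 8 outermost genes each way of the libraries that stand apart. Some single genes are not reported here.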

Additional observations from a re-analysis of the deposited data

How the results depend on the processing

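her3 kept its direction and its call under all alternatives that were run. None of the 68 other called genes picked by difference, adjusted p or list changed sign in an alternative that held it. The alternative that required at least 5 CPM in 3 libraries left out 11 of the 68. The outermost genes of the libraries that stand apart were given as levels and were not followed through the alternatives. The number of called genes, with list members, genes higher and genes lower at 72 hpf in that order beside it, was 694 (45, 59 and 55). With the 6 compared libraries alone in the fit it was 182 (15, 11 and 15), with the 12 at 24 hpf 323 (24, 26 and 24), and log2(CPM + 0.1) gave 36 genes lower at 72 hpf. Leaving out 1 library gave 327 to 817 called genes, 24 to 65 list members, 33 to 67 genes higher and 21 to 40 genes lower at 72 hpf, and 2.0 to 2.18 for her3. Without both libraries that stand apart the list members numbered 103 and the genes higher at 72 hpf 93. With the replicate block 611 genes were called, 575 of them among the 694. Deviations of same-numbered replicates from their group means correlated at 0.18, 0.07 and 0.29. For her3 morpholino replicate 1 and mismatch replicate 3 the correlation was -0.18, and for her3 morpholino replicate 3 and mismatch replicate 1 it was -0.27. Whether same-numbered libraries share more than a number was not tested. Every her3 morpholino library correlated best with its own number, and mismatch replicate 2 did not. Of 68 called named genes besides her3, 30 lost the call with 6 libraries in the fit, 19 with 12 and 6 under the replicate block. Voom on the recovered reads called 830 genes, of which 663 were shared. The 2 further count tests foreseen for the recovered reads were not run. With 3 pools per group, differences near the median standard error of 0.16 on the log2 scale cannot be told from the spread.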

Other observations

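A list of sterol synthesis genes was written after the values had been seen, so it carries no test of its own. Of its 25 genes 3 were called lower with the her3 morpholino and none higher, beside 1.9% of all genes called lower. The other 22 did not pass, among them FDPS (-0.20 ± 0.13, adjusted p = 0.5), HMGCS1 (-0.21 ± 0.08, 0.19) and DHCR7 (-0.11 ± 0.11, 0.7). In all 21 lay below 0, and the median log2 difference was -0.20. MVK, the mevalonate kinase, had 6.27, 5.38 and 4.94 CPM with the her3 morpholino against 12.4, 10.45 and 12.0 CPM with the mismatch (-1.01 ± 0.12, limma adjusted p = 0.00015). CYP51A1, which removes a methyl group from lanosterol, had 12.0, 11 and 14.4 against 24.8, 22.2 and 29.5 CPM (-1.003 ± 0.13, limma adjusted p = 0.00037). ACAT2, a thiolase at the head of the pathway, had 28.9, 35.9 and 38.02 against 49.5, 57.5 and 70.7 CPM (-0.77 ± 0.12, limma adjusted p = 0.0017). The morpholino groups did not overlap in any of these 3 genes, and each was called without each library in turn. WIK took a different place in each. It had 14.6, 10.6 and 10.8 CPM of CYP51A1, overlapping the her3 morpholino, with the mismatch above both. For MVK it lay between the groups, at 8.49, 8.50 and 6.86 CPM. For ACAT2, at 60.0, 50.5 and 51.9 CPM, it overlapped the mismatch, with the her3 morpholino below both. LSS was at -0.45 ± 0.13 and did not pass (adjusted p = 0.079).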
